A study of Mus musculus with 24 samples.

Results

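PLX3397 was added to Anakinra in 5 of the 24 mice whose brain RNA was sequenced, and these 5 libraries were compared with the 5 libraries from mice given Anakinra without PLX3397. All 10 mice were male C57BL6N animals aged 12 to 16 weeks by the sample labels, had a traumatic brain injury (TBI) by controlled cortical impact and were sampled at 5 days post injury (dpi). Anakinra was injected subcutaneously at 100 mg/kg in both groups, starting 5 min after TBI and repeated after 24, 48 and 72 h. PLX3397 was the only treatment that differed by the labels. The PLX3397 plus Anakinra group (the combination) received chow with 290 mg/kg PLX3397 from 90 min after TBI. Members were chosen by the treatment in their labels, so 10 of 24 libraries entered the comparison, 1 library per mouse, and the tissue was the injured brain quadrant. The labels call the tissue cortex, and the study's methods also name striatum, dorsal hippocampus and thalamus. Ppp1r1b, a signalling protein of striatal projection neurons, was at 651 ± 47.6 TPM with Anakinra and 772 ± 95.8 TPM with the combination (SD, n = 5). That difference missed an adjusted p below 0.05 in limma (adjusted p = 0.0549). It passed with a filter at a mean of 5 TPM or without Anakinra J14 or combination J03 or J04.

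PLX3397 inhibits the kinase of colony stimulating factor 1 receptor (CSF1R), the receptor on which microglia and most other tissue macrophages depend for survival and proliferation. Its ligands are CSF1 and interleukin-34, and the drug also inhibits the related kinases KIT and FLT3. Anakinra is a recombinant form of the natural interleukin-1 receptor antagonist and occupies IL1R1, so that interleukin-1α and interleukin-1β are kept from it. After TBI, resident microglia, macrophages of the meninges and vessels, and infiltrating monocytes take up debris, release chemokines and respond to interferons. Because both groups received Anakinra, the comparison asks what CSF1R inhibition changed in injured tissue of mice that all received the interleukin-1 blocker.

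Expression was deposited as TPM, a relative abundance corrected for the length of each gene, and differences are given between group means of log2(TPM + 1), combination minus Anakinra, where the change of genes near 0 TPM is understated. A gene was called lower or higher at an adjusted p below 0.05 (limma, Benjamini-Hochberg over all genes tested). Of the 17267 genes averaging 0.5 TPM or more over the series, 1412 (8.18%) were lower and 825 (4.78%) were higher with the combination. At an unadjusted p below 0.05 in limma, 2189 of them had a negative and 2649 a positive difference. Lower genes differed by a median of -0.55 and higher genes by a median of 0.22, while the median over all tested genes was 0.03. Group means at least halved for 466 of the lower genes and at least doubled for 12 of the higher ones. The criteria of the study for a differentially expressed gene (DEG), an unadjusted p below 0.05, a ratio of mean TPM above 2 and a difference above 4 TPM, were met by 265 lower genes (1.53%) and 3 higher genes (0.0174%). TPM values of the groups did not overlap at all for 1253 genes in the lower direction (7.26%) and 680 in the higher direction (3.94%).

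The count of higher genes was less stable than the count of lower genes. Rescaling each library by its median ratio to the geometric mean of all libraries gave 1534 lower and 470 higher genes, so that higher genes made up 36.9% of calls before and 23.5% after rescaling. All 470 genes higher after rescaling were among the 825. Leaving out a single mouse lowered the count of higher genes to 377 without Anakinra J05, 535 without Anakinra J06, 405 without Anakinra J21, 454 without combination J10 and 382 without combination J17. The count of lower genes stayed between 1160 and 1433 in these fits. The 3 higher DEGs became 8 without Anakinra J22 and 1 without combination J17. Correlations of log2(TPM + 1) over the tested genes were 0.992 to 0.995 between libraries of one group and 0.981 to 0.991 between groups.

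**Figure D1:**
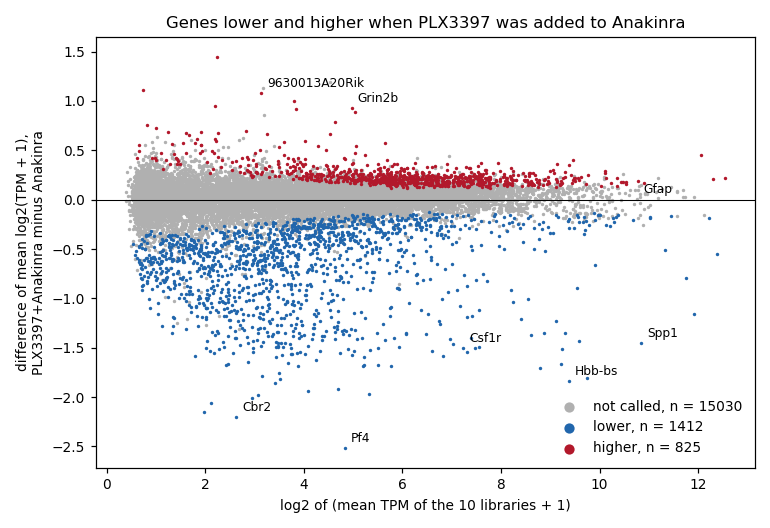
Difference in mean log2(TPM + 1), combination minus Anakinra (vertical axis), against the log2 of the mean TPM of the 10 libraries plus 1 (horizontal axis), 1 point per tested gene. The 1412 genes called lower (blue) reach -2.52 for Pf4, and 789 of the 825 called higher (red) lie between 0 and 0.5.

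The drug target came first. Csf1r measured 234, 215, 219, 213 and 224 TPM with Anakinra and 83.8, 78.1, 70.95, 82.1 and 72.6 TPM with the combination. No combination mouse came near the lowest Anakinra mouse, and the mean was 64.9% lower (log2 difference -1.50, SE 0.05, adjusted p = 1.16e-09). Csf1r had the smallest p of all tested genes in this comparison. In bulk tissue, fewer CSF1R-expressing cells and less Csf1r RNA per cell cannot be told apart, and the same holds for every cell type gene that follows. Of its 2 ligands, Csf1 was lower (51.8 to 41.1 TPM, log2 difference -0.32, SE 0.08, adjusted p = 0.0118), with 59.2, 50.3, 49.7, 44.3 and 55.4 TPM with Anakinra and 46.1, 39.8, 38.7, 43.5 and 37.6 TPM with the combination. Il34, made largely by neurons, was higher (51.9 to 58.8 TPM, log2 difference 0.18, SE 0.04, adjusted p = 0.00728), with 51.5, 49.8, 52.5, 51.7 and 53.97 TPM with Anakinra and 57.3, 60.2, 60.6, 58.1 and 57.9 TPM with the combination. The kinases that PLX3397 also inhibits were not called. Kit differed by 0.13 ± 0.08 (SE) and Flt3 by 0.17 ± 0.10 (SE), with adjusted p = 0.327 and 0.302, and their ligands differed by 0.13 for Kitl and -0.26 for Flt3l. Receptors for the other colony-stimulating factors were lower in 4 of 4 cases. Csf3r, the G-CSF receptor, fell from 17.2 to 7.14 TPM, Csf2rb and Csf2rb2, signalling chains for GM-CSF and interleukin-3, fell from 8.05 to 3.19 TPM and from 5.60 to 2.53 TPM, and Csf2ra, the GM-CSF-binding chain, fell from 14.1 to 9.92 TPM.

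Genes of the pathway that Anakinra blocks were lower in part. The receptor Il1r1 measured 10.5, 8.48, 8.08, 9.58 and 9.23 TPM with Anakinra and 9.85, 8.72, 11.9, 8.42 and 9.16 TPM with the combination, with overlapping groups and a difference of 0.06 ± 0.09 (SE) (95% interval -0.15 to 0.26). Its partner chain Il1rap differed by 0.15 ± 0.06 (SE) (adjusted p = 0.132) and was called higher without combination J09, its lowest mouse. The ligand Il1a was lower, from 1.61 to 0.674 TPM (log2 difference -0.64, SE 0.10, adjusted p = 3.69e-04), whereas Il1b was low in every mouse, with 0.541, 0.829, 1.10, 0.599 and 0.511 TPM with Anakinra and 0.420, 0.533, 0.675, 0.789 and 0.433 TPM with the combination, and was not called (adjusted p = 0.561). Il1rn, the endogenous antagonist that Anakinra copies, was lower, from 2.54 to 1.06 TPM (adjusted p = 0.00588). Inflammasome genes were lower too. Pycard, the adaptor of the inflammasome, measured 27.02, 22.2, 22.3, 25.2 and 23.96 TPM with Anakinra and 9.32, 9.24, 7.14, 8.37 and 6.18 TPM with the combination (log2 difference -1.48, SE 0.10, adjusted p = 1.46e-07), and no values overlapped. The sensor Nlrp3 fell by 1.03, the protease Casp1 by 0.88 and the pore-forming Gsdmd by 0.88 on the log2 scale. In all, 9 of 19 tested genes of the interleukin-1 axis were lower and none was higher, with a median difference of -0.22. Il33, an alarmin of oligodendrocytes and astrocytes, was the most abundant member not called, at 122 ± 10.8 TPM with Anakinra and 124 ± 14.8 TPM with the combination (SD, n = 5).

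**Figure D2:**
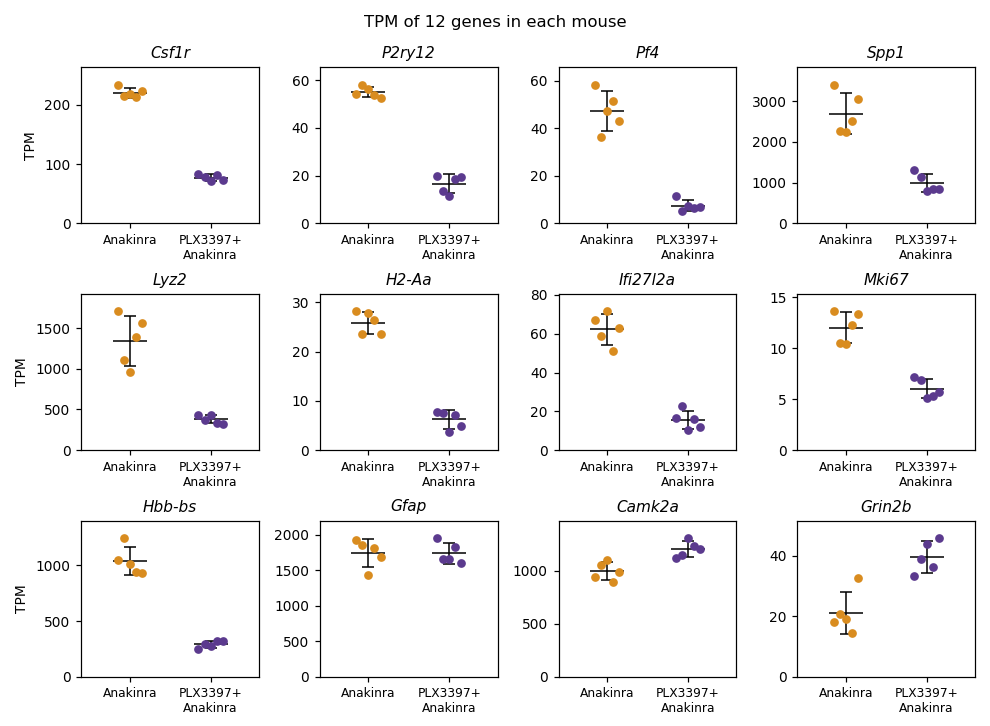
TPM (vertical axes, each starting at 0) of 12 genes in the 5 Anakinra mice (orange) and the 5 combination mice (purple), 1 point per mouse, with the group mean and SD as a bar. The groups separate for the genes of macrophages, antigen presentation, interferon response, proliferation and blood, overlap for Gfap, and lie higher with the combination for Camk2a and Grin2b.

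Microglial identity genes were lower throughout. All 18 of 18 tested genes of homeostatic microglia were lower, at a median difference of -1.37, and 17 were after rescaling. P2ry12, the ADP receptor that steers microglial processes, measured 54.3, 58.02, 56.2, 53.9 and 52.3 TPM with Anakinra and 20.02, 13.8, 11.4, 18.8 and 19.5 TPM with the combination. The highest combination value was below the lowest Anakinra value, and the mean was 69.6% lower (log2 difference -1.69, SE 0.12, adjusted p = 3.56e-07). Siglech, a sialic acid-binding receptor of microglia, fell from 20.6 to 6.43 TPM, and Crybb1, a crystallin expressed by microglia, fell from 7.85 to 2.01 TPM. Selplg, the ligand of P-selectin, was among the 5 lower genes with the smallest p and measured 62.97, 65.5, 69.4, 62.98 and 71.3 TPM with Anakinra and 24.4, 23.5, 19.8, 25.3 and 21.6 TPM with the combination. The members were not lowered alike. Differences ran from -1.69 for P2ry12 to -0.19 for Cst3, a protease inhibitor that other brain cells also express, and Sparc and Sall3, likewise not restricted to microglia, differed by -0.31 and -0.27. The calls of Cst3 and Sall3 were lost without Anakinra J05, J06, J14 or J21 or combination J09, J10 or J17 for Cst3 and without Anakinra J05, J06, J14 or J22 or combination J04, J10 or J17 for Sall3. Aif1, which encodes the macrophage protein IBA1, measured 75.6, 72.4, 59.2, 64.7 and 67.1 TPM with Anakinra and 21.3, 25.3, 18.3, 22.9 and 15.6 TPM with the combination (log2 difference -1.68, SE 0.11, adjusted p = 9.38e-08). Ptprc, which encodes the leukocyte antigen CD45, fell from 13.6 to 4.70 TPM (log2 difference -1.38, SE 0.11, adjusted p = 1.12e-06).

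Genes of macrophages at the brain's borders showed the most negative median of all 47 lists, -1.65, and 15 of 16 were lower. Pf4, a CXC-family chemokine of these macrophages and of platelets, measured 58.3, 36.3, 47.2, 51.4 and 43.1 TPM with Anakinra and 11.6, 5.45, 7.48, 6.43 and 6.83 TPM with the combination. The highest combination value, in mouse J03, was far below the lowest Anakinra value, in mouse J06, and the mean was 84.03% lower (log2 difference -2.52, SE 0.16, adjusted p = 7.98e-08). Cbr2, a carbonyl reductase, measured 10.7, 7.61, 8.12, 9.40 and 9.84 TPM with Anakinra and 1.81, 0.875, 1.07, 1.53 and 0.839 TPM with the combination (log2 difference -2.20, SE 0.13, adjusted p = 5.38e-08). Mrc1, the mannose receptor CD206, measured 5.90, 5.34, 4.64, 7.13 and 7.10 TPM with Anakinra and 1.12, 0.651, 0.388, 0.564 and 0.674 TPM with the combination (log2 difference -2.06, SE 0.13, adjusted p = 9.38e-08). Both genes fell below the range of the Anakinra mice in every combination mouse. Like Pf4, they were named by a rule that required no overlap. Ms4a7, a tetraspanning membrane protein of macrophages, fell from 11.3 to 2.11 TPM, and F13a1, a subunit of coagulation factor XIII that macrophages produce, from 15.7 to 3.57 TPM. The scavenger receptor Cd163 was at 1.46 ± 0.348 TPM with Anakinra and 0.308 ± 0.122 TPM with the combination (SD, n = 5) and was lower (adjusted p = 1.00e-04). Colec12, a scavenger receptor that vascular and stromal cells also express, was the member not called, with a difference of -0.21 ± 0.10 (SE). These genes lie on several chromosomes of GRCm38 in the RefSeq annotation, with Pf4 at chr5:90772435-90773383, Cbr2 at chr11:120729485-120732025, Mrc1 at chr2:14229414-14332023, Ms4a7 at chr19:11321039-11336146, Ms4a6b at chr19:11518559-11530403 and F13a1 at chr13:36867178-37050244. Ms4a6b, a neighbour and relative of Ms4a7, belonged to no list and measured 12.04, 10.98, 13.3, 14.2 and 11.6 TPM with Anakinra and 3.00, 2.43, 2.04, 2.17 and 2.38 TPM with the combination (log2 difference -1.98, SE 0.09, adjusted p = 1.15e-08).

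Genes that phagocytes raise on activation were lower in 22 of 23 tested cases, with a median of -0.86. Spp1, which encodes osteopontin, a secreted matrix protein, measured 3398, 2276, 2234, 2504 and 3059.6 TPM with Anakinra and 1318, 1129, 802, 844 and 850.1 TPM with the combination. Every combination value was below every Anakinra value (log2 difference -1.45, SE 0.14, adjusted p = 6.86e-06), while the Anakinra mice themselves spanned a wide range. Arg1, the arginine-degrading arginase 1, fell from 16.5 to 4.03 TPM (adjusted p = 1.91e-05), and Msr1, a scavenger receptor, from 10.3 to 3.25 TPM. Cd68, a lysosomal glycoprotein of phagocytes, measured 289, 235, 220.0, 268 and 269 TPM with Anakinra and 136, 139, 109.5, 108 and 96.6 TPM with the combination (log2 difference -1.12, SE 0.10, adjusted p = 2.27e-06). Tyrobp, the adaptor DAP12 of TREM2, fell from 559 to 216 TPM. Fth1, the ferritin heavy chain present in most cells, was the member not called, at 0.03 (95% interval -0.11 to 0.16).

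The machinery of uptake and digestion was lower as well. All 17 of 17 Fc and ITAM receptor genes were lower, in a narrow range of -1.60 to -0.99. Cd33, an inhibitory sialic acid receptor, fell from 15.3 to 4.47 TPM, Fcgr2b, the inhibitory IgG receptor, from 46.1 to 15.1 TPM, and Fcgr1, the high-affinity IgG receptor, from 28.7 to 9.25 TPM. The phagocyte NADPH oxidase, which makes superoxide, was lower in all 7 genes. Its cytosolic organizer Ncf1 measured 45.7, 38.8, 42.4, 43.9 and 45.2 TPM with Anakinra and 16.4, 14.7, 13.7, 14.8 and 12.99 TPM with the combination and its catalytic core Cybb 10.3, 8.63, 9.68, 10.4 and 13.8 TPM with Anakinra and 3.47, 3.95, 2.69, 2.61 and 2.63 TPM with the combination, both without overlap. Lysosomal proteases and related genes were lower in 16 of 19 cases. Ctss, a cathepsin of antigen-presenting cells, fell from 674 to 265 TPM, Ctsd, an abundant aspartic protease, from 5288 to 2381 TPM, and Grn, the precursor of granulins, from 469 to 202 TPM. Ctsf, expressed widely in brain, was the most abundant member not called, at -0.06 (adjusted p = 0.280).

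Complement genes were lower in part. The receptor chains Itgam and Itgb2, which together form complement receptor 3, fell from 81.8 to 24.8 TPM and from 58.8 to 19.99 TPM. The recognition subunits of C1q that microglia make were lower, with C1qa at 1186, 1058, 1074, 1159 and 1064 TPM with Anakinra and 468, 447, 392, 409.8 and 347 TPM with the combination (log2 difference -1.43, SE 0.07, adjusted p = 1.39e-08) and C1qc falling from 891 to 314 TPM. C4b, which astrocytes and oligodendrocytes express after injury, was at 151 ± 10.5 TPM with Anakinra and 134 ± 15.2 TPM with the combination (SD, n = 5) and was not called (adjusted p = 0.115), although it passed without combination J03. In all, 10 of 19 complement genes were lower and none was higher. Toll-like receptors and their partners were lower in 12 of 15 cases. Ly86, the partner of the receptor CD180, fell from 234 to 80.5 TPM, Tlr2, a receptor for bacterial lipoproteins and damage products, from 18.9 to 6.67 TPM, and Tlr13, a receptor for bacterial ribosomal RNA, from 15.3 to 5.03 TPM. Tlr3, the sensor of double-stranded RNA that astrocytes also carry, was not called, at -0.23 (adjusted p = 0.0836).

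Transcription factors of the myeloid lineage were lower in 10 of 15 cases. Spi1, which encodes PU.1, the factor that specifies macrophages, measured 36.6, 28.5, 28.8, 27.3 and 28.3 TPM with Anakinra and 12.5, 10.3, 10.2, 11.4 and 9.75 TPM with the combination (log2 difference -1.38, SE 0.08, adjusted p = 7.00e-08). Irf8, a partner of PU.1 in microglia, fell from 28.8 to 10.2 TPM, the homeobox gene Hhex from 8.59 to 2.92 TPM, and Irf5, which acts downstream of Toll-like receptors, from 14.5 to 5.44 TPM. Mef2c, a factor that neurons share with microglia, was the most abundant member not called, at 0.11 ± 0.06 (SE). PU.1 reads a GA-rich element, and the letters GAGGAAGT were searched on both strands in the promoters that RefSeq annotates for GRCm38, 250 bases before to 50 bases after each start. They occurred in 102 of 1078 genes called lower with a promoter in the table (9.46%), in 13 of 579 called higher (2.25%) and in 447 of all 12771 tested genes with a promoter (3.50%). Of the lower DEGs, 31 of 198 (15.7%) held them. Of the genes with the largest differences, Pf4 held them before its start and F13a1 held them in 1 of its 2 annotated promoters, not wholly before the start. Cbr2, Ccl8, Mrc1, Ms4a7, Ms4a6b and H2-Aa, also among the most lowered genes, did not hold them. Of the homeostatic microglia genes, 0 of 13 with a promoter held them. The 250 bases before the start of Pf4, chr5:90772185-90772434, plus strand, are shown because they held the letters. The searched letters are in capitals as they read on the reverse strand, starting 10 bases before the start.
Pf4 promoter: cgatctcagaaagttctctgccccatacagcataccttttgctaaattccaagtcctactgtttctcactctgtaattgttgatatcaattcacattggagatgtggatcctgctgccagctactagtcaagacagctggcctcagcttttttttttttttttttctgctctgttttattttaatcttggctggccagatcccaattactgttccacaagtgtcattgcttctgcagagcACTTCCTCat
A match of 8 letters is a description of the sequence, and PU.1 binding was not measured.

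Antigen presentation was lower in both classes. The class II chains H2-Aa, H2-Ab1 and H2-Eb1, which present peptides to CD4+ T cells, and their chaperone Cd74 were each lower, H2-Eb1 at -1.82 and H2-Ab1 at -1.69 on the log2 scale. H2-Aa measured 28.1, 23.5, 27.7, 26.3 and 23.6 TPM with Anakinra and 7.74, 7.55, 3.60, 7.20 and 4.96 TPM with the combination (log2 difference -1.94, SE 0.15, adjusted p = 7.02e-07), and Cd74 measured 51.2, 35.4, 46.2, 36.2 and 31.5 TPM with Anakinra and 12.7, 9.78, 7.77, 8.76 and 10.3 TPM with the combination (log2 difference -1.91, SE 0.13, adjusted p = 2.39e-07). Neither gene had overlapping values, which the rule for the most lowered genes required. In all, 10 of 14 class II genes were lower, and Cd80, a costimulatory ligand, was among those not called, with -0.13. Class I genes were lower in 16 of 16 cases, at a median of -0.84, and the most negative difference was -1.49. The class II list, which also held genes not called such as Cd80, had a median of -0.77 and reached -1.94. H2-Q6, whose reads can be shared with close paralogs, fell from 6.71 to 1.72 TPM, and the immunoproteasome subunits Psmb8 and Psmb9 fell from 47.96 to 21.4 TPM and from 17.2 to 7.79 TPM.

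Interferon-stimulated genes were lower in 38 of 39 tested cases, with a median of -1.06, and the values of 38 did not overlap between groups. Ifi27l2a, a mitochondrial protein induced by interferon, measured 67.3, 58.8, 71.5, 50.95 and 63.1 TPM with Anakinra and 16.8, 22.6, 10.6, 15.8 and 12.01 TPM with the combination (log2 difference -1.97, SE 0.16, adjusted p = 7.38e-07). Ifi204, a sensor of cytosolic DNA, fell from 18.3 to 5.22 TPM, Oas1a, an RNA-activated synthetase, from 18.7 to 5.97 TPM, and Zbp1, a sensor of Z-form nucleic acids, from 8.64 to 2.45 TPM. Cmpk2, a mitochondrial nucleotide kinase, was the member not called, at -0.17 ± 0.07 (SE), and passed without Anakinra J05. The GTPases induced by interferon-γ were lower in 11 of 14 cases with a median of -0.62. Tgtp2 fell from 6.36 to 2.62 TPM, Iigp1 from 10.3 to 4.86 TPM, Irgm2 from 14.7 to 8.44 TPM and Gbp2 from 21.1 to 12.9 TPM. Ifi47 was at -0.56 and missed the threshold (adjusted p = 0.0563), which it passed without combination J04 or J09.

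Chemokines of the CC family and their receptors were lower in 12 of 15 cases. Ccl8, which attracts monocytes and T cells, measured 3.57, 5.72, 6.72, 8.11 and 3.13 TPM with Anakinra and 0.725, 0.251, 0, 0.511 and 0.561 TPM with the combination, so that 1 combination mouse was listed at 0 (log2 difference -2.16, SE 0.21, adjusted p = 6.12e-06). The monocyte attractants Ccl7 and Ccl9 fell from 6.52 to 1.82 TPM and from 11.1 to 3.57 TPM. Ccl19 was not called (adjusted p = 0.673) and was at 1.20, 1.602, 1.34, 1.45 and 0.199 TPM in the combination mice. The CXC family moved in both directions, with 4 of 10 lower and 2 higher. Cxcl10, an interferon-induced attractant of T cells, measured 39.5, 45.6, 51.6, 40.9 and 39.2 TPM with Anakinra and 21.8, 21.3, 14.6, 18.2 and 19.4 TPM with the combination (log2 difference -1.15, SE 0.10, adjusted p = 2.08e-06), and Cxcl13, Cxcl16 and Cxcr4 were also lower, at -0.73, -0.73 and -0.59. In the other direction, Cx3cl1, the fractalkine of neurons, rose from 485 to 585 TPM (log2 difference 0.27, SE 0.07, adjusted p = 0.0147), and Cxcl12, made by vessels, meninges and neurons, rose from 32.4 to 38.6 TPM (adjusted p = 0.00807). Its receptor Cxcr4 and the receptor of fractalkine, Cx3cr1, were lower, the latter from 127 to 49.1 TPM. Cxcl14 was not called, at 0.10 (adjusted p = 0.388).

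Genes of infiltrating cells gave mixed calls, and most listed neutrophil and lymphocyte genes were below the level filter. Of 8 tested monocyte genes, 4 were lower. Lyz2, the lysozyme of monocytes and macrophages, measured 1707, 1108, 959.6, 1391 and 1561 TPM with Anakinra and 430.3, 369.6, 426, 336 and 327 TPM with the combination (log2 difference -1.81, SE 0.14, adjusted p = 5.32e-07). Ccr2, the receptor that brings monocytes out of bone marrow, was at 2.00, 1.597, 2.28, 2.64 and 2.29 TPM with Anakinra and 0.685, 0.678, 0.242, 0.690 and 0.686 TPM with the combination (log2 difference -0.99, SE 0.12, adjusted p = 6.35e-05). S100a4, a calcium-binding protein, fell from 54.6 to 34.9 TPM, and Chil3, a chitinase-like protein, from 2.40 to 0.971 TPM, a call lost without Anakinra J05. Fn1, fibronectin, was not called, at -0.39 (adjusted p = 0.0618), but passed without Anakinra J06 or J14 or combination J03. The count of lower monocyte genes was 3 to 6 when each mouse was left out in turn. Of 15 neutrophil genes, 6 passed the level filter and 3 were lower, Csf3r, Mmp9 and Mmp8, which other myeloid cells can also express. The abundant neutrophil product Lcn2, which astrocytes also make, measured 15.3, 23.7, 52.9, 17.9 and 16.6 TPM with Anakinra and 16.7, 17.4, 54.8, 12.2 and 15.96 TPM with the combination, with mouse J09 far above the other combination mice, and was not called (adjusted p = 0.820). Of 20 lymphocyte genes, 3 passed the filter. Cd79b, a chain of the B cell receptor, was lower (2.04 to 1.01 TPM), and Cd4, which mouse brain also transcribes outside T cells, was at 0.20 (adjusted p = 0.174) and was called without combination J04. The defining genes Cd3e, Cd8a and Ms4a1 were below the filter, so lymphocytes could not be assessed.

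Hemoglobin transcripts were lower in the combination mice. Hbb-bs, an adult β-globin, measured 1052, 1246, 1014, 939 and 934 TPM with Anakinra and 245, 290.4, 271, 317 and 324 TPM with the combination (log2 difference -1.84, SE 0.09, adjusted p = 1.15e-08), and Hbb-bt, Hba-a1 and Hba-a2 fell from 167 to 56.2 TPM, 898 to 282 TPM and 676 to 208 TPM. These copies are nearly identical within the α and within the β group, so reads may be divided between them. Of 6 tested erythroid genes 5 were lower, and the list summed to 2575 to 3387 TPM with Anakinra and 821 to 1040.3 TPM with the combination. Bpgm, a glycolytic enzyme that brain cells also express, was not called (0.04). Of 15 genes that handle heme and iron 6 were lower and none was higher. Hmox1, heme oxygenase 1, fell from 382 to 205 TPM (log2 difference -0.92, SE 0.15, adjusted p = 8.16e-04), Slc11a1, a phagosomal iron transporter, from 27.2 to 10.95 TPM, and Ftl1, the ferritin light chain, from 4358 to 2505 TPM. The part that blood content of the samples had in these values was not tested.

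Proliferation genes were lower nearly throughout, in 29 of 30 cases at a median of -0.65. Mki67, the nuclear antigen Ki-67 of cycling cells, measured 13.6, 10.5, 10.4, 12.3 and 13.3 TPM with Anakinra and 7.14, 6.92, 5.07, 5.29 and 5.73 TPM with the combination (log2 difference -0.89, SE 0.10, adjusted p = 3.16e-05). Aurkb and Pbk, mitotic kinases, fell from 6.79 to 3.15 TPM and 18.4 to 9.51 TPM, and Ccnb1, the cyclin that starts mitosis, from 14.6 to 7.74 TPM. Tyms, a DNA precursor enzyme, was the member not called, at -0.25 ± 0.11 (SE). None of the 30 met the DEG criteria. Bulk RNA does not show which cell type these transcripts came from.

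**Figure D3:**
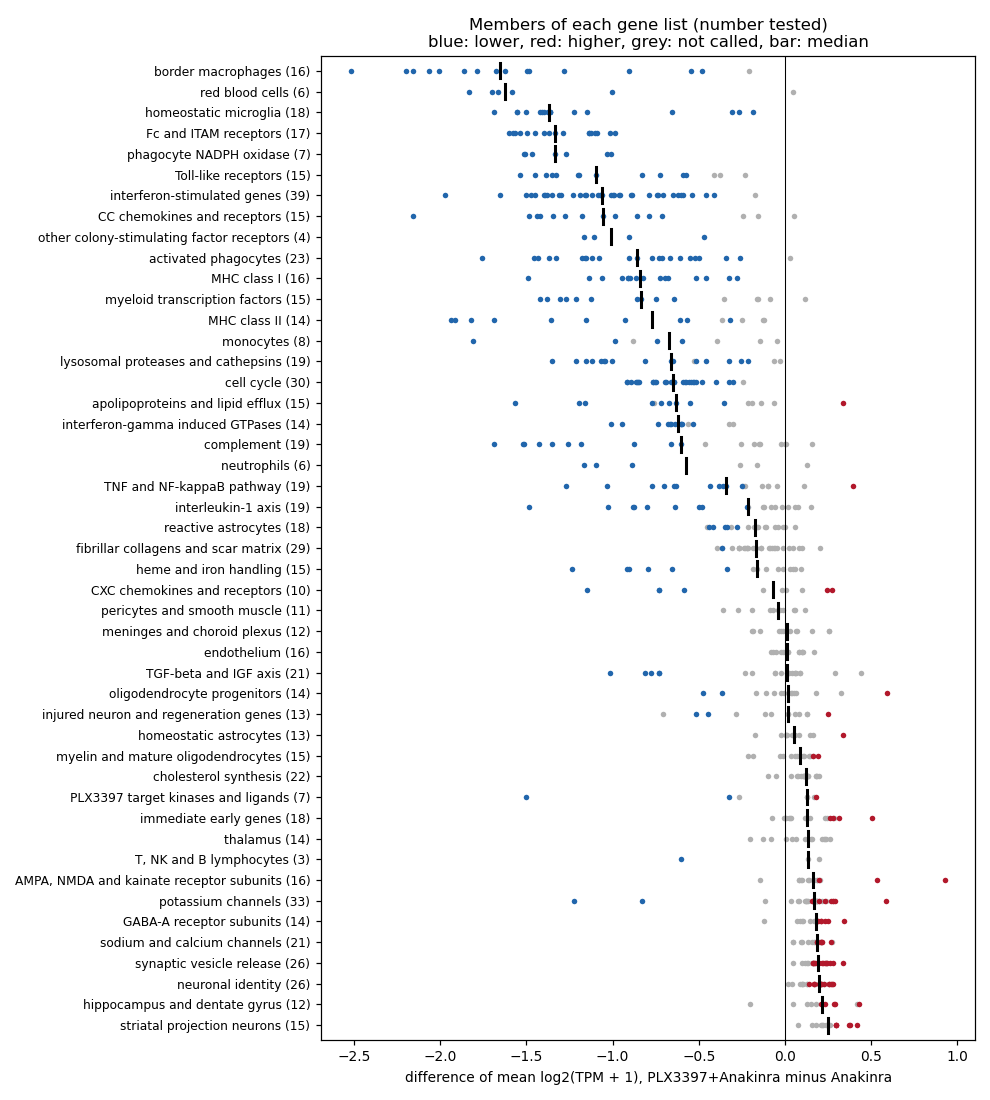
Differences in mean log2(TPM + 1), combination minus Anakinra (horizontal axis), for the tested members of the 47 gene lists (rows, ordered by median), 1 point per gene, coloured by call, with the median as a bar. Lists of macrophages, interferon response and blood lie on the negative side, lists of vessels and meninges around 0, and neuronal lists slightly above 0.

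Lipid transport genes were lower in 9 of 15 cases. Apoc2 and Apoc1, small apolipoproteins, fell from 19.2 to 6.03 TPM and 14.99 to 6.23 TPM, Ch25h, which makes 25-hydroxycholesterol, from 24.5 to 10.4 TPM, and Lpl, lipoprotein lipase, from 96.5 to 56.5 TPM. Lcat, which esterifies cholesterol on astrocyte lipoproteins, was the only member of the list called higher (79.5 to 101 TPM, log2 difference 0.34, SE 0.05, adjusted p = 5.48e-04). None of the 22 cholesterol synthesis genes was called by limma, with 10 at an unadjusted p below 0.05 (1 was called higher without Anakinra J14 or combination J03, 2 without combination J04 and 3 without combination J09), and their median was 0.12. Over all 17267 tested genes, 2189 with a negative and 2649 with a positive difference reached that unadjusted level. Tgfb1, the cytokine on which microglial identity depends, fell from 31.4 to 14.98 TPM (log2 difference -1.01, SE 0.08, adjusted p = 9.17e-07), and its receptors Tgfbr1 and Tgfbr2 and its target Tgfbi fell from 31.2 to 17.4 TPM, 46.7 to 27.8 TPM and 38.5 to 21.96 TPM. In all, 5 of 21 genes of the TGF-β and insulin-like growth factor axis were lower. In the TNF and NF-κB pathway, 11 of 19 genes were lower. Tnfaip8l2, a brake on immune signalling, fell from 21.1 to 8.16 TPM, the TNF receptor Tnfrsf1b from 18.8 to 8.65 TPM, and Tnf itself from 1.52 to 0.455 TPM. Ptgs2, cyclooxygenase-2, which cortical neurons express with activity, was the only member higher, from 5.82 to 7.93 TPM (log2 difference 0.40, SE 0.11, adjusted p = 0.0274), a call lost without Anakinra J05 or J06 or combination J09 or J17.

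Vascular, meningeal and fibroblast genes gave few calls. None of 16 endothelial, 11 pericyte and smooth muscle, or 12 meningeal and choroid plexus genes was called by limma, with 0, 2 and 1 at an unadjusted p below 0.05 (1 pericyte gene was called lower without combination J04), and their medians were 0.01, -0.04 and 0.01. That unadjusted level was reached by 2189 lower and 2649 higher genes of all 17267 tested. Over all tested genes, 8.18% were called lower and 4.78% higher, so few or no calls can occur in lists this short. Slc2a1, the glucose transporter of brain vessels, measured 156 ± 4.13 TPM with Anakinra and 168 ± 24.9 TPM with the combination (SD, n = 5). Of 29 collagen and scar matrix genes, 1 was lower and none was higher (4 lower without Anakinra J06, 2 without combination J03 or J04). That gene was Pdgfra, a receptor of fibroblasts and oligodendrocyte progenitors, which fell from 30.3 to 23.3 TPM (log2 difference -0.36, SE 0.06, adjusted p = 8.63e-04). Col1a2, a chain of type I collagen, measured 549, 257, 264, 377 and 358 TPM with Anakinra and 396, 290.2, 322, 251 and 235 TPM with the combination. Its groups overlapped, and the difference of -0.24 ± 0.18 (SE) was not called (adjusted p = 0.438).

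Calls of astrocyte genes varied with the mice in the fit. Gfap, the intermediate filament of reactive astrocytes, measured 1925, 1857, 1437, 1812 and 1684 TPM with Anakinra and 1955, 1664, 1655, 1830.1 and 1598 TPM with the combination. The groups overlapped widely, and the difference was 0.00 ± 0.08 (SE), with a 95% interval of -0.17 to 0.17. Of 18 reactive astrocyte genes, 5 were lower and 16 had a negative difference. Over all tested genes, 8.18% were called lower. Emp1, a membrane protein, fell from 31.1 to 22.5 TPM, a call lost without Anakinra J05, J21 or J22 or combination J09, J10 or J17, and the intermediate filament Vim fell from 922 to 726 TPM, a call lost without Anakinra J05 or combination J17. The differences were -0.44 and -0.35, and the groups overlapped for both. The calls rested on single mice. The list had 8 lower genes without combination J03, 2 without Anakinra J21 or J22, 1 without combination J09 or J10, and none without Anakinra J05, without combination J17 or in a fit of all 24 libraries. Ntsr2, a neurotensin receptor of astrocytes, was the 1 of 13 homeostatic astrocyte genes that was called, and it was higher (164 to 207 TPM, log2 difference 0.34, SE 0.07, adjusted p = 0.00687). Over all tested genes, 4.78% were called higher, so 1 call in a list this short is no result about astrocytes.

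Genes of the oligodendrocyte lineage were called in both directions. Of 14 progenitor genes, 2 were lower and 1 was higher, at a median of 0.02. Over all tested genes, 8.18% were lower and 4.78% were higher. Cspg4, the progenitor proteoglycan NG2, which pericytes also carry, was lower (log2 difference -0.47, SE 0.09, adjusted p = 0.00184), as was Pdgfra, and Enpp6, a phosphodiesterase of newly forming oligodendrocytes, was higher. Enpp6 measured 14.6, 11.2, 9.62, 10.6 and 13.8 TPM with Anakinra and 20.8, 20.4, 14.4, 18.6 and 18.5 TPM with the combination (log2 difference 0.59, SE 0.12, adjusted p = 0.00318). Olig1, a lineage factor, was at 0.04 and was not called. Of 15 myelin genes, 2 were higher, Mbp by 0.19 ± 0.06 (SE) and Mobp by 0.16 ± 0.05 (SE), and both calls depended on single mice. None was higher after rescaling or without Anakinra J06, J21 or J22 or combination J03 or J10, 1 was without Anakinra J05 or combination J04, and 5 were without combination J09. In some of these fits myelin genes were called lower instead, 2 without combination J03 and 1 each without Anakinra J22 or combination J10.

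Neuronal genes were higher by small amounts. Of 26 neuronal identity genes 14 were higher and none was lower, at a median of 0.20. Rescaling left 8 of them higher at a median of 0.17, and leaving out single mice gave 8 to 16, with 8 without Anakinra J05, Anakinra J21 or combination J17 and 9 without combination J10. Camk2a, a kinase of excitatory synapses, measured 947, 1054, 1105, 896 and 994 TPM with Anakinra and 1120.3, 1149, 1312, 1235 and 1209 TPM with the combination (log2 difference 0.27, SE 0.06, adjusted p = 0.00862). Each combination mouse was above each Anakinra mouse. Sst, the neuropeptide of an interneuron class, rose from 568 to 689 TPM, and the neurofilament Nefl from 350.2 to 422 TPM. Tubb3, a neuronal tubulin, was the most abundant member not called, at 0.10 ± 0.04 (SE), and passed without Anakinra J22.

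Synaptic and channel genes were called higher in varying shares of their lists, against 4.78% of all tested genes. Synaptic vesicle genes were higher in 15 of 26 cases (5 after rescaling, 3 without Anakinra J05, 5 without Anakinra J21 or combination J17, 6 without combination J10 and 8 without combination J09), for example Unc13c, a vesicle priming factor, at 21.6 to 27.5 TPM, and Rims1, an active zone organizer, at 48.7 to 58.9 TPM, a call lost without Anakinra J05. GABA-A receptor subunits were higher in 6 of 14 cases (4 after rescaling, 2 without Anakinra J05, J06 or J21 or combination J04 or J10, and 1 without combination J17), led by Gabrd, the extrasynaptic δ subunit, from 88.03 to 112 TPM. Sodium and calcium channel genes were higher in 6 of 21 cases (2 after rescaling, 2 without Anakinra J05, J21 or combination J17, 3 without combination J09 or J10, 2 in the fit of all 24 libraries, and 10 without Anakinra J14 or J22), with Scn1a, the main sodium channel of fast-spiking interneurons, from 62.03 to 74.8 TPM. Glutamate receptor subunits were higher in 3 of 16 cases. Among them the NMDA receptor subunit Grin2b stood apart, with 18.3, 20.6, 18.98, 14.3 and 32.7 TPM with Anakinra and 33.3, 39.1, 43.9, 36.4 and 45.9 TPM with the combination (log2 difference 0.93, SE 0.16, adjusted p = 0.00119). Its values did not overlap, which the rule for the most raised genes required, and Anakinra mouse J22 came close to the lowest combination mouse. Grin2a, another NMDA receptor subunit, rose from 8.26 to 12.3 TPM (log2 difference 0.53, SE 0.11, adjusted p = 0.00522). Of 33 potassium channel genes 7 were higher and 2 were lower, and the higher ones numbered 3 after rescaling, 2 or 3 without Anakinra J05 or J21 or combination J09, J10 or J17 and 11 without Anakinra J14. Kcnh7, a channel of the ERG family, rose from 8.70 to 13.5 TPM. The 2 lower ones, Kcnk6 (12.8 to 4.90 TPM) and Kcnn4 (2.33 to 0.869 TPM), are channels that myeloid cells express.

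Regional markers were examined because the quadrant held several structures. The share called higher over all tested genes was 4.78%. Striatal genes were higher in 6 of 15 cases before and after rescaling, 10 without combination J04 and 3 without combination J17, and Gpr6 and Adora2a, receptors of striatal projection neurons, rose from 23.1 to 31.01 TPM and 65.8 to 84.8 TPM. Hippocampal genes were higher in 5 of 12 cases (2 after rescaling, and 1 to 3 with any mouse but combination J03 left out) and thalamic genes in 0 of 14 (2 at an unadjusted p below 0.05 in limma, and 2 called without Anakinra J22). Summed striatal markers ranged from 1930.1 to 2544 TPM with Anakinra and from 2347 to 2999.9 TPM with the combination, with overlapping ranges, and the part of tissue composition in the neuronal values was not tested. Activity-dependent genes were higher in 4 of 18 cases (2 without combination J17). Egr4 measured 17.2, 19.6, 21.3, 11.3 and 16.5 TPM with Anakinra and 19.9, 23.1, 27.4, 25.8 and 25.9 TPM with the combination (log2 difference 0.50, SE 0.13, adjusted p = 0.0231), with overlapping groups and a call lost without combination J09, J10 or J17. Egr3 and Homer1 rose by 0.31 and 0.26, and Egr1, at 0.28, was not called (adjusted p = 0.0947) except without combination J03. Among genes of injured neurons, Tubb6, a tubulin, fell from 45.1 to 33.3 TPM, Atf3, a stress-induced factor, fell from 25.4 to 17.6 TPM with a call lost without Anakinra J05, J06, J21 or J22 or combination J10 or J17, Flrt3, an adhesion molecule, rose from 17.5 to 20.99 TPM, and the other 10 of 13 were not called.

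The genes with the largest increases included noncoding and uncharacterised ones. 9630013A20Rik, a noncoding RNA, measured 6.91, 4.74, 2.68, 3.80 and 5.44 TPM with Anakinra and 10.3, 10.7, 8.96, 9.90 and 14.1 TPM with the combination (log2 difference 1.08, SE 0.17, adjusted p = 6.34e-04), and 2900055J20Rik measured 5.44, 7.72, 11.6, 6.90 and 10.3 TPM with Anakinra and 15.3, 12.95, 18.3, 17.8 and 23.2 TPM with the combination (log2 difference 1.00, SE 0.17, adjusted p = 0.00135). Together with Gm33272 they were the 3 higher DEGs. Gm33272, named after its values were seen, ranged from 0.135, 1.01, 2.52, 0.844 and 2.08 TPM with Anakinra to 9.66, 3.37, 0.999, 4.87 and 11.6 TPM with the combination, with overlapping groups and a call lost without Anakinra J05, J06 or J21 or combination J03, J10 or J17. Kctd16, an auxiliary subunit of GABA-B receptors, measured 9.70, 9.12, 9.36, 5.90 and 11.2 TPM with Anakinra and 14.9, 20.1, 17.9, 16.8 and 18.8 TPM with the combination (log2 difference 0.91, SE 0.13, adjusted p = 1.79e-04), Dok6, an adaptor of neurotrophic receptor kinases, rose from 17.2 to 30.3 TPM, and Bfsp2, a beaded filament protein known from the lens, from 16.95 to 27.4 TPM. Tmem178, among the 5 higher genes with the smallest p, rose from 60.2 to 75.2 TPM with little spread (log2 difference 0.32, SE 0.04, adjusted p = 1.71e-04). Also in this group were LOC108168313, Gm42391 and LOC102640399, at 0.95, 0.89 and 0.66.

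Calls varied with the span of a gene in the genome, taken from RefSeq on GRCm38 for 16167 of the 17267 tested genes. In the longest of 10 equal groups, genes of 129.6 kb or more, 11.8% were called higher and 2.54% lower, at a median difference of 0.10. In the shortest group 3.53% were higher and 8.60% lower, at a median of 0.01. After rescaling the group with the longest genes still had 8.04% higher and 2.91% lower. Many neuronal genes are long, and whether span itself or the cell type of long genes goes with these calls was not tested.

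**Figure D4:**
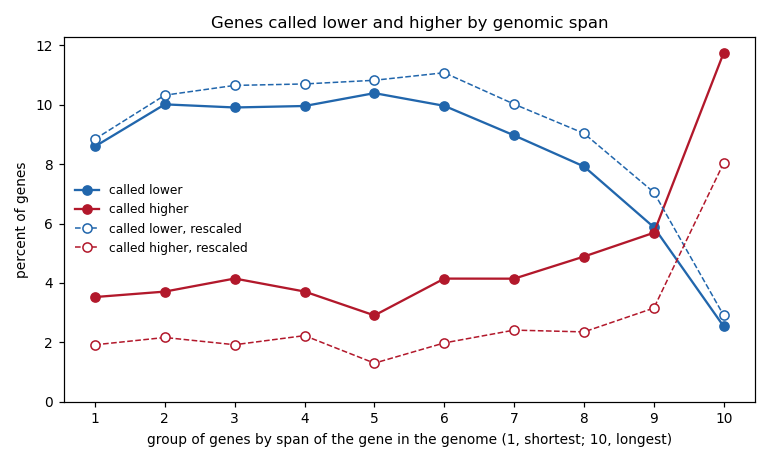
Percent of tested genes called lower (blue) and higher (red), combination versus Anakinra, in 10 equal groups of genes ordered by genomic span, as deposited (solid) and after rescaling by the median ratio (dashed). The percent called higher is 2.91% to 5.69% in the 9 groups of shorter genes and 11.8% in the group with the longest genes.

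The same addition of PLX3397 was also made without Anakinra in other mice of this study with the same injury, sex, strain and time, as PLX3397 versus vehicle, 5 mice each, and these 10 libraries share none with the 10 above. In that comparison 1150 genes (6.66%) were lower and 557 (3.23%) higher in a fit of all 24 libraries. Of the 1412 genes lower with the combination, 861 (60.98%) were also lower with PLX3397 alone, which is 74.9% of the latter. Of the 825 higher genes, 130 (15.8%) were also called higher with PLX3397 alone, 23.3% of that set, and no gene was called in opposite directions. Without regard to calls, 1346 of the 1412 lower and 769 of the 825 higher genes had the same sign with PLX3397 alone. The 2 differences had a Pearson correlation of 0.68 across all tested genes. Csf1r differed by -1.50 with Anakinra and -1.35 without it, and P2ry12 by -1.69 and -1.74. The homeostatic microglia list had medians of -1.37 and -1.33.

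The difference between the 2 PLX3397 effects was tested for every gene as an interaction over all 24 libraries. None of the 17267 genes passed an adjusted p below 0.05 in limma (smallest adjusted p = 0.153), and 1395 (8.08%) had an unadjusted p below 0.05. Without PLX3397 mouse J01, 9 genes passed, Cxcl10, Ifi44, Ifit1, Ifit3, Ifit3b, Irf7, Nmi, Pf4 and Tgtp2. The interaction was negative for 39 of 39 interferon-stimulated genes, 36 at an unadjusted p below 0.05. Over all tested genes, 728 interactions at that level were negative and 667 positive. Members of a list come from the same mice, so their signs are not independent. The list's medians were -1.06 with Anakinra and -0.30 without. Cxcl10 averaged 28.1 ± 4.35 TPM with vehicle, 28.9 ± 7.90 with PLX3397, 43.4 ± 5.27 with Anakinra and 19.1 ± 2.87 with the combination (SD), an interaction of -1.16, SE 0.23, unadjusted p = 3.94e-05, adjusted p = 0.153. Ifi44 averaged 4.76 ± 0.644, 4.57 ± 1.11, 6.88 ± 1.26 and 2.75 ± 0.595 TPM in the same order (-1.01, SE 0.20, unadjusted p = 2.77e-05, adjusted p = 0.153), and Ifit1 20.97 ± 2.74, 23.6 ± 6.11, 30.5 ± 6.83 and 15.2 ± 2.69 TPM (-1.09, SE 0.22, unadjusted p = 4.35e-05, adjusted p = 0.153). In each of these 3 genes the Anakinra group was the highest and the combination group the lowest, while vehicle and PLX3397 lay close together. These 3 were chosen for the smallest negative interaction p, so a pattern of this kind follows from the choice.

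Collagen and scar matrix genes had few calls in one setting and many in the other. With Anakinra 1 of 29 was called lower and 5 had a positive difference. Their median was -0.17 with Anakinra and 0.92 without it, and 18 of 29 were higher with PLX3397 versus vehicle, against 3.23% of all tested genes. The interaction had an unadjusted p below 0.05 in limma for 24, against 8.08% of all tested genes, and was negative for 29 of 29. Members of the list come from the same mice, so these counts are not counts of independent results. Col1a2 averaged 143 ± 107 TPM with vehicle, 279 ± 99.6 with PLX3397, 361 ± 118 with Anakinra and 299 ± 64.1 with the combination (SD, interaction -1.68, SE 0.67, unadjusted p = 0.0184, adjusted p = 0.551). Border macrophage genes had medians of -1.65 and -0.99, with 8 of 16 at an unadjusted p below 0.05. For Pf4 the interaction was -1.52, SE 0.32, unadjusted p = 7.24e-05, adjusted p = 0.208. In the positive direction the smallest p belonged to Rfx2, a factor of ciliated cells, at 5.40 ± 0.598 TPM with vehicle, 3.63 ± 0.276 with PLX3397, 3.82 ± 0.289 with Anakinra and 4.32 ± 0.390 with the combination (SD, interaction 0.61, SE 0.12, unadjusted p = 3.73e-05, adjusted p = 0.153). The uncharacterised genes Gm41639 and Gm38927 followed, at 0.62 and 1.07. Red blood cell genes had medians of -1.62 and -1.77, with 0 of 6 interactions at an unadjusted p below 0.05.

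**Figure D5:**
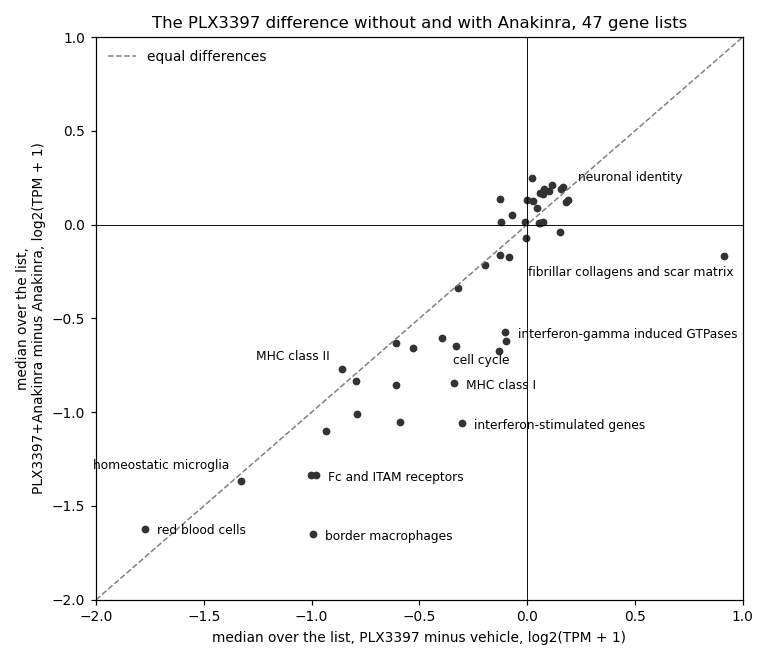
Median difference of each of the 47 gene lists in log2(TPM + 1), combination minus Anakinra (vertical axis) against PLX3397 minus vehicle (horizontal axis), 1 point per list, with equal differences as the dashed line. The interferon-stimulated genes (-1.06 against -0.30) and the collagens (-0.17 against 0.92) lie far below the line, and homeostatic microglia lie on it.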

How the data were processed

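Total RNA from lesional and perilesional tissue was enriched for poly(A) RNA and sequenced as paired ends on a NovaSeq instrument. The authors trimmed and mapped the reads in CLC Genomics Workbench against mm10 (GRCm38 per the submitters' processing notes) and deposited TPM per gene and mouse, with no counts, so the depth of each library is unknown and no counting interval is given. TPM fixes each library's total, so a gene can gain share when abundant genes lose it. Of the other deposited tables, one is a rounded copy and one a rounded subset beside the authors' own p and F values, which were not used.

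The study's methods name t-tests and ANOVA-like methods. Here TPM was tested as log2(TPM + 1) with limma (version 3.58.1, R 4.3.3), with a variance trend and Benjamini-Hochberg adjustment, over 17267 genes that averaged 0.5 TPM or more over the 24 libraries. The main fit held the 10 libraries of both groups, and the interaction fit all 24. The main fit, but not the interaction fit, was tested on simulated data with independent noise for each gene. Mice are taken as the replicates, since the labels give 1 library per mouse, and identifiers such as J05 are the labels' own. The labels and the methods differ in strain and age, and the labels' values are given.

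Genes named in the text were the 10 most lowered and the 10 most raised called genes without overlap and with at least 5 TPM in the higher group, drug targets and stained markers, up to 4 called members with the largest difference in each of 47 gene lists with members called against the list's direction and the most abundant member not called, 3 genes per direction with the smallest interaction p, and 5 per direction with the smallest p. Cst3, Sparc, Sall3, Cx3cr1, Flt3l, Gm33272 and any other gene outside this rule were chosen after values were seen. The groups, lists and rule were chosen with earlier results of these data known, and the lists therefore give no independent support. List symbols were matched by name or RefSeq synonym (AI607873 and Scn2a1), and Il36g, Plin2, Mx1, Mx2 and Ahsp were not analysed here. Alternatives changed the pseudocount, filter, scaling, libraries in the fit, variance trend or statistic, or left out each mouse. List counts with each mouse left out or with all 24 libraries were added after the data were seen. Some items that the rule would name are not reported here.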

Additional observations from a re-analysis of the deposited data

Results flagged for a closer look

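Among 187 named genes, each group of 5 mice was checked for a mouse far from the other 4, by Dixon's gap ratio with a critical value of 0.71, and 18 of 374 groups were marked. Chance marks about 1 in 20 groups.

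Combination mouse J09 was the low mouse for Ccr2 (0.242 TPM against 0.678 to 0.690), Siglech (4.26 TPM against 6.74 to 7.40), Il1rap (16.5 TPM against 19.2 to 19.9) and Tgtp2 (1.90 TPM against 2.68 to 2.91), and the high mouse for Lcn2 (54.8 TPM against 12.2 to 17.4). Combination mouse J17 was low for Apoc1 (2.59 TPM against 6.12 to 7.69) and Ccl19 (0.199 TPM against 1.20 to 1.602) and high for Tnf (0.867 TPM against 0.310 to 0.448). Combination mouse J04 was low for F13a1 (2.64 TPM against 3.61 to 4.06), and J03 was high for Tlr13 (6.99 TPM against 4.28 to 4.82).

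Anakinra mouse J14 was high for interferon-induced genes, with Ifi204 at 21.5 TPM against 16.9 to 17.7, Irgm2 at 18.2 TPM against 13.4 to 14.3 and Tgtp2 at 9.16 TPM against 5.32 to 5.85, and low for Rfx2 (3.32 TPM against 3.85 to 4.03). Anakinra mouse J05 was high for Spi1 (36.6 TPM against 27.3 to 28.8), Cxcl13 (2.35 TPM against 1.05 to 1.25) and Tnfaip8l2 (24.9 TPM against 19.4 to 20.8). Anakinra mouse J06 was low for Cxcl16 (14.2 TPM against 15.5 to 16.1).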

How the results depend on the processing

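The count of lower genes and the count of lower DEGs stayed within 1.5 times their values under each alternative run. The 825 higher genes became 504 without a filter beyond TPM above 0, 470 after rescaling, 450 without a variance trend and 310 with an unequal-variance statistic on TPM, and 377 to 950 with single mice left out. The 3 higher DEGs became 1 to 8 with single mice left out. The interaction count of 0 stayed 0 under the other alternatives and ranged from 0 to 9 with single mice left out. Small differences changed sign for genes that were not called. After rescaling these were Gfap (-0.0265), Il33 (-0.0101) and Fth1 (-0.0012). With single mice left out, Gfap ranged from -0.0661 to 0.0393, Il33 from -0.0325 to 0.0908, Fth1 from -0.0156 to 0.063, Lcn2 from -0.5164 to 0.1354, Il1r1 from -0.0178 to 0.1023 and Ccl19 from -0.2625 to 0.0441. Of 2959 values for single genes, 2841 kept their direction and their side of the threshold, 86 were no longer called, 16 became called and 16 changed sign. Outside the fits with a mouse left out, calls were lost for 11 of the 187 genes without the filter, 7 in the fit of all 24 libraries, 6 without a variance trend, 4 after rescaling and 1 with a pseudocount of 0.1. Causes of these changes were not tested. No paired analysis was possible because the groups share no replicate numbers. Depth is unknown, so genes near 0 TPM have no stated precision beyond the spread between mice.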

Other observations

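The letters GAGGAAGT, held in at least 1 promoter by 3.50% of the tested genes with a promoter, were also counted in single lists. Of the genes with a promoter, none of 13 homeostatic microglia genes and 2 of 10 border macrophage genes held them. The same was so for 3 of 15 Fc and ITAM receptor genes, 1 of 29 interferon-stimulated genes and none of 18 neuronal identity genes. Some genes have more than 1 promoter. These counts are descriptions of small lists, and differences between lists were not tested.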
